A study of Mus musculus with 2 samples.

Results

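Border macrophages are the resident macrophages of the brain's edges, and here they were 151 of the 39861 nuclei read from mouse hippocampus. There were 89 among 19596 nuclei of the AAV-TAU library and 62 among 20265 of the AAV-STOP library. A nucleus was taken as one when Mrc1 and F13a1 together had 2 or more UMIs (unique molecular identifiers, each standing for 1 counted RNA molecule), and when Mrc1, F13a1, Stab1, Dab2 and Cd163 together had 4 or more. It could hold at most 1 UMI of Bnc2, a fibroblast gene, and at most 2 UMIs of Flt1, an endothelial gene. These UMIs chose the nuclei, so the levels of these genes are given as a description. The animals were C57BL/6J mice given adeno-associated virus into the ventricles of both hemispheres at postnatal day 0, and hippocampi were taken at 6 weeks of age. In AAV-TAU the vector carried wild-type human tau in its full-length 2N4R form. In AAV-STOP the MAPT transcript of the vector ended at a premature stop codon and no tau protein was made, so both groups had received a virus with human MAPT sequence. The hippocampi of 3 mice were pooled per group, about 20000 nuclei were loaded, and each group is 1 library of 10x Genomics 3' counts. The promoter of the vectors and the cells it drives are not given in the sources used here, and the 32285 genes counted are mouse genes, so the transgene was not followed.

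With 1 library per group there was no test, and differences are described by their size. Intervals are exact 95% intervals for counting alone, of nuclei for shares and their ratios and of UMIs for levels and their ratios. How far mice differ from each other is not in them. Intervals of levels also leave out how far nuclei differ from each other. CPM is the UMIs of a gene divided by all UMIs of the nuclei summed, on the usual counts-per-million scale. The libraries held 109428807 UMIs in AAV-TAU and 130252240 in AAV-STOP, with medians of 5119 and 5750 UMIs per barcode and smallest barcodes of 1633 and 1973 UMIs. The libraries shared 116 barcode sequences. None belonged to a border macrophage in both libraries, and 1 belonged to an AAV-STOP border macrophage. Nuclei that the scrublet method marked as doublets (12.1% of AAV-TAU and 12.2% of AAV-STOP barcodes) were kept, and values without them are given for the share, the counts of genes, the rule's markers and the genes that turned sign.

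Border macrophages sit in the perivascular spaces, the meninges and the choroid plexus rather than in the brain tissue itself. They take up material from the cerebrospinal fluid and the vessel surroundings through scavenger and mannose receptors, and they can present antigen. In mouse they are told from microglia, the macrophages of the tissue, by Mrc1, Cd163, Lyve1, Pf4 and Ms4a7, while microglia carry P2ry12, Tmem119 and Sall1.

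The 5 genes of the rule are the basis of every count below, and their promoters are shown for that reason. Mrc1 encodes the mannose receptor CD206, F13a1 the A subunit of coagulation factor XIII, Stab1 the scavenger receptor stabilin-1, Dab2 an adaptor of clathrin-dependent uptake and Cd163 the receptor for haptoglobin-haemoglobin. Each window runs from 250 bases before to 50 bases after the first listed start in RefSeq (GRCm38.p6) and is printed 5′ to 3′ on the strand of the gene. Capitals mark GAGGAA or its reverse complement TTCCTC, the purine-rich core of many sites bound by PU.1, the myeloid factor encoded by Spi1.
Mrc1, chr2:14229164-14229463, plus strand: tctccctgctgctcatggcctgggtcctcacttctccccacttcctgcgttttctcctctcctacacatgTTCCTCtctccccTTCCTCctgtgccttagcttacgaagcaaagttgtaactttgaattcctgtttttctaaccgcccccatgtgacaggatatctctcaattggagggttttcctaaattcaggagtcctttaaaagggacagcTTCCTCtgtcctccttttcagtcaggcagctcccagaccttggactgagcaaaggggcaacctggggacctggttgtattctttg
F13a1, chr13:37050195-37050494, minus strand: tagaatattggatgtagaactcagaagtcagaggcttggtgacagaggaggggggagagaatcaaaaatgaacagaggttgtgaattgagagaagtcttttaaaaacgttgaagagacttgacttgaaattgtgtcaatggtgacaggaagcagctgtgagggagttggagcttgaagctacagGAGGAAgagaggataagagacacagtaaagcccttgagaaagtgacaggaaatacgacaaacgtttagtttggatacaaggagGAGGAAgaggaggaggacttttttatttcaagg
Stab1, chr14:31168592-31168891, minus strand: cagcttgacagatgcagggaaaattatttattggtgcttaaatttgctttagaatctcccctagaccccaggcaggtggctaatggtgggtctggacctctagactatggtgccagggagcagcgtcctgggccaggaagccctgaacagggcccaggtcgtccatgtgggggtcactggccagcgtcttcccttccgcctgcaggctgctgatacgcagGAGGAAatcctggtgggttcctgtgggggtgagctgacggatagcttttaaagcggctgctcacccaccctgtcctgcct
Dab2, chr15:6299539-6299838, plus strand: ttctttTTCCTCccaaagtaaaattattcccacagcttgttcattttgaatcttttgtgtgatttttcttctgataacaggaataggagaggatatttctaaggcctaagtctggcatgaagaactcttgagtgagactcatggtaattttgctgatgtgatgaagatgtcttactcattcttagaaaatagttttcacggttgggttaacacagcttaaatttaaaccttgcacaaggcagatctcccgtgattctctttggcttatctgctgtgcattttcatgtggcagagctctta
Cd163, chr6:124304401-124304700, plus strand: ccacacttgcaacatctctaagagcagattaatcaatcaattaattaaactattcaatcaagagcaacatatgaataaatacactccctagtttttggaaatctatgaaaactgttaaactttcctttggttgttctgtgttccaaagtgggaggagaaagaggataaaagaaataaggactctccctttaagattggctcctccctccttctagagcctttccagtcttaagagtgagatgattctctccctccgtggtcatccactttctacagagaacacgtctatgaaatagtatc
The letters occurred in 4 of these 5 windows, 3 times for Mrc1, 2 times for F13a1, 1 time each for Stab1 and Dab2 and not for Cd163. Of all 32851 listed promoters of this length, 28.3% held them on either strand. A match is a description of the sequence and not a site of binding. Spi1 itself was counted at 124.8 CPM in AAV-TAU and 141.9 CPM in AAV-STOP among border macrophages without Rbfox3 UMIs.

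Mrc1 had 0 to 34 UMIs per nucleus in AAV-TAU (median 6) and 0 to 26 in AAV-STOP (median 5), and it was found in 85 of 89 and 59 of 62 nuclei. F13a1 had 0 to 40 UMIs in both libraries, with medians of 8 in AAV-TAU and 9 in AAV-STOP. Dab2 had 0 to 28 UMIs in AAV-TAU (median 4) and 0 to 18 in AAV-STOP (median 3). The ranges of the libraries overlapped almost fully for these 3 genes. Stab1 had 0 to 7 UMIs in AAV-TAU and 0 to 9 in AAV-STOP, with a median of 2 in each. Cd163 was the sparsest, with UMIs in 40 of 89 AAV-TAU nuclei and 27 of 62 AAV-STOP nuclei and at most 5 and 11 UMIs.

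**Figure D1:**
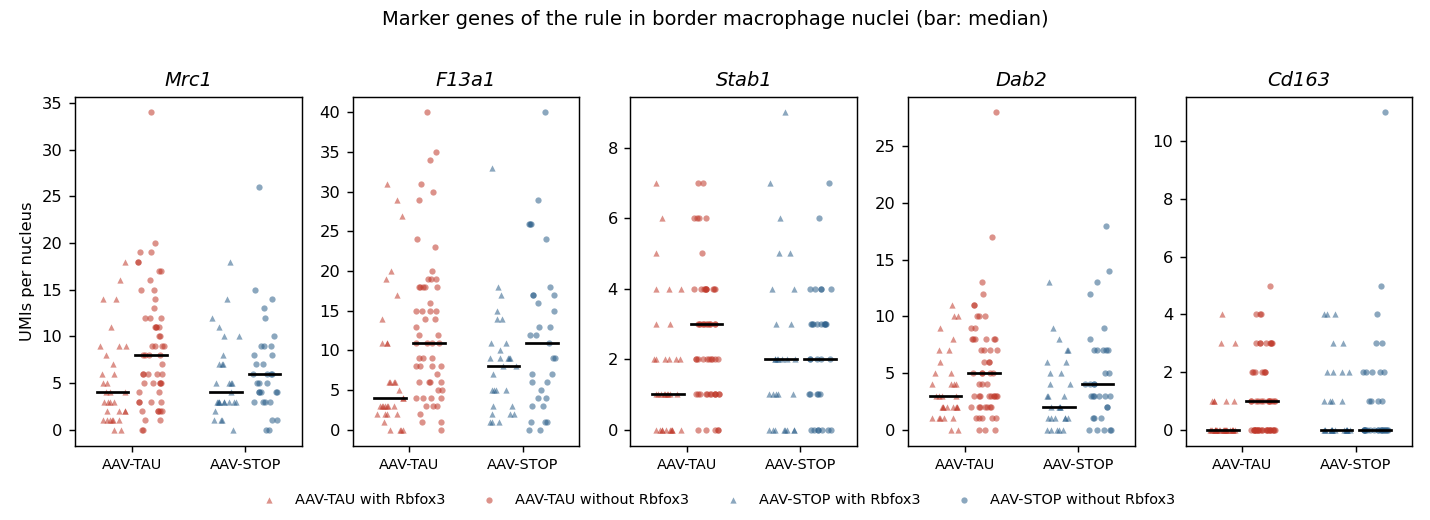
UMIs per nucleus (vertical axes) of the 5 marker genes of the rule in AAV-TAU (left in each panel) and AAV-STOP, with triangles for nuclei with Rbfox3 UMIs, circles for nuclei without and bars at the medians. The libraries overlap in every panel, and the median of Mrc1 over all members was 6 UMIs in AAV-TAU and 5 in AAV-STOP.

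Few nuclei lay at the edge of the rule. Inside it, the 5 markers summed to exactly 4 UMIs in 4 AAV-TAU nuclei and in 0 AAV-STOP nuclei. Just outside, 7 AAV-TAU and 8 AAV-STOP nuclei had 2 or 3 UMIs of Mrc1 and F13a1 and 3 UMIs of all 5 markers. The pan-macrophage list, 30 genes such as Csf1r, Ptprc and Runx1 that macrophages of all kinds use, took 0.194% of their UMIs in AAV-TAU and 0.114% in AAV-STOP, against 0.421% and 0.563% over all members. The limit on Bnc2 kept out 3 nuclei in each library, and the limit on Flt1 kept out 5 in AAV-TAU and 4 in AAV-STOP.

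Over all members, markers that the rule did not use were found more often than in neuronal nuclei. Lyve1, the hyaluronan receptor of perivascular macrophages, was found in 48.3% of AAV-TAU and 58.1% of AAV-STOP border macrophages, at median depths of 2764 and 3433 UMIs. In neuronal nuclei, which lack the gene, its share was 0.240% in AAV-TAU and 0.299% in AAV-STOP, at median depths of 6518 and 6827.5 UMIs. With each nucleus thinned to 1500 UMIs, Lyve1 was found in 24.7% of AAV-TAU and 35.5% of AAV-STOP border macrophages, against 0.0343% and 0.0654% of neuronal nuclei. Ms4a7, a membrane protein of border macrophages, gave thinned shares of 29.2% in AAV-TAU and 25.8% in AAV-STOP, against 0.0343% and 0.0374% of neuronal nuclei. Cbr2, a carbonyl reductase, gave 15.7% and 16.1%, and was found in 0 of 657 AAV-TAU and 0 of 456 AAV-STOP microglial nuclei after thinning. Pf4, the chemokine platelet factor 4, was sparser, at 10.1% in AAV-TAU and 3.23% in AAV-STOP against 0.103% and 0.0561% of neuronal nuclei. The counting intervals of the libraries overlap (4.73 to 18.3 and 0.393 to 11.2). Members with Rbfox3 UMIs were mixed. Lyve1 was found in 13 of 33 of them in AAV-TAU and 17 of 29 in AAV-STOP. A list of 20 neuronal genes, Rbfox3 among them, stood there at 43982 and 42408 CPM, against 52500.5 and 55176 CPM in neuronal nuclei. Their pan-macrophage list stood at 1827 and 3341 CPM, against 10819 and 10001 CPM without Rbfox3.

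Border macrophages without Rbfox3 UMIs were set beside microglial nuclei without Rbfox3 UMIs, 432 in AAV-TAU and 200 in AAV-STOP. Microglial nuclei were chosen by 4 or more UMIs of P2ry12, Siglech, Tmem119, Cx3cr1, Gpr34 and Sall1 with at most 1 of Mrc1 and F13a1. Ratios are log2((CPM + 20)/(CPM + 20)), and genes with 30 or more UMIs in the set with the higher CPM were measured. In AAV-TAU, 136 of 4551 measured genes (2.99%) were past 2-fold higher in border macrophages and 419 (9.21%) past 2-fold lower. In AAV-STOP, 62 of 2991 (2.07%) were higher and 367 (12.3%) lower. In border macrophages 30 UMIs stood for 197 CPM in AAV-TAU and 284 CPM in AAV-STOP. They stood for less in microglial nuclei, which held more UMIs. Genes higher in microglial nuclei were thus measured from lower levels, so the counts higher and lower cannot be set against each other. Of the 39 listed border macrophage genes outside the rule, 29 were past 2-fold higher in AAV-TAU and 27 in AAV-STOP, and 1 was past 2-fold lower in each. The 30 pan-macrophage genes were split evenly, with 4 higher and 4 lower past 2-fold in each library and medians of 0.09 and 0.10 on the log2 scale. All 17 microglia genes were counted in the same way, and 13 in AAV-TAU and 11 in AAV-STOP were past 2-fold lower, none past 2-fold higher. That list includes P2ry12, Siglech, Tmem119, Cx3cr1, Gpr34 and Sall1, whose UMIs chose the microglial nuclei. Their part of the count was set by that choice and is a description.

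Several genes outside the rule stood far above microglial nuclei in both libraries. Aoah, which inactivates lipopolysaccharide, had 702.9 CPM in AAV-TAU and 482.6 CPM in AAV-STOP border macrophages, against 0 and 1.63 CPM in microglial nuclei. Rbpj, the DNA-binding partner of the Notch receptors, had 3186 and 1807 CPM against 84.3 and 97.5 CPM. Colec12, a scavenger receptor of the collectin family, had 775 and 757 CPM against 12.602 and 56.9 CPM. These 3 genes were 3.34 to 5.18 log2 units above microglial nuclei in both libraries. Apoe, a lipid carrier, had 1478 and 1145 CPM in border macrophages against 112.4 and 144.7 CPM in microglial nuclei. Arhgap15, a regulator of Rac, had 821 and 852 CPM against 44.6 and 26.0 CPM. Ms4a4a, a tetraspanin-like protein of macrophages, had 374 and 341 CPM against 0 and 3.25 CPM.

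Of the 30 pan-macrophage genes, 22 in each library were within 2-fold of microglial nuclei, such as Runx1, C1qa and Csf1r. Arhgap15 is also on that list and was not. Runx1, a haematopoietic transcription factor, had 696 CPM in AAV-TAU and 558 CPM in AAV-STOP border macrophages, against 514 and 444 CPM in microglial nuclei. C1qa, a chain of complement C1q, had 420 and 378 CPM against 320 and 245 CPM. Csf1r, the receptor for the growth factors CSF1 and IL-34, had 401 and 549 CPM against 675 and 549 CPM. The lowest genes were microglial. Tgfbr1, a receptor chain for TGF-beta, had 190.5 and 331 CPM in border macrophages against 1618 and 1374 CPM in microglial nuclei. Plxdc2, a membrane protein, had 151.1 and 378 CPM against 2494 and 2170 CPM. Sall1, the microglial transcription factor, had 1 UMI in AAV-TAU and 0 in AAV-STOP border macrophages, but it was part of the rule for microglial nuclei.

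**Figure D2:**
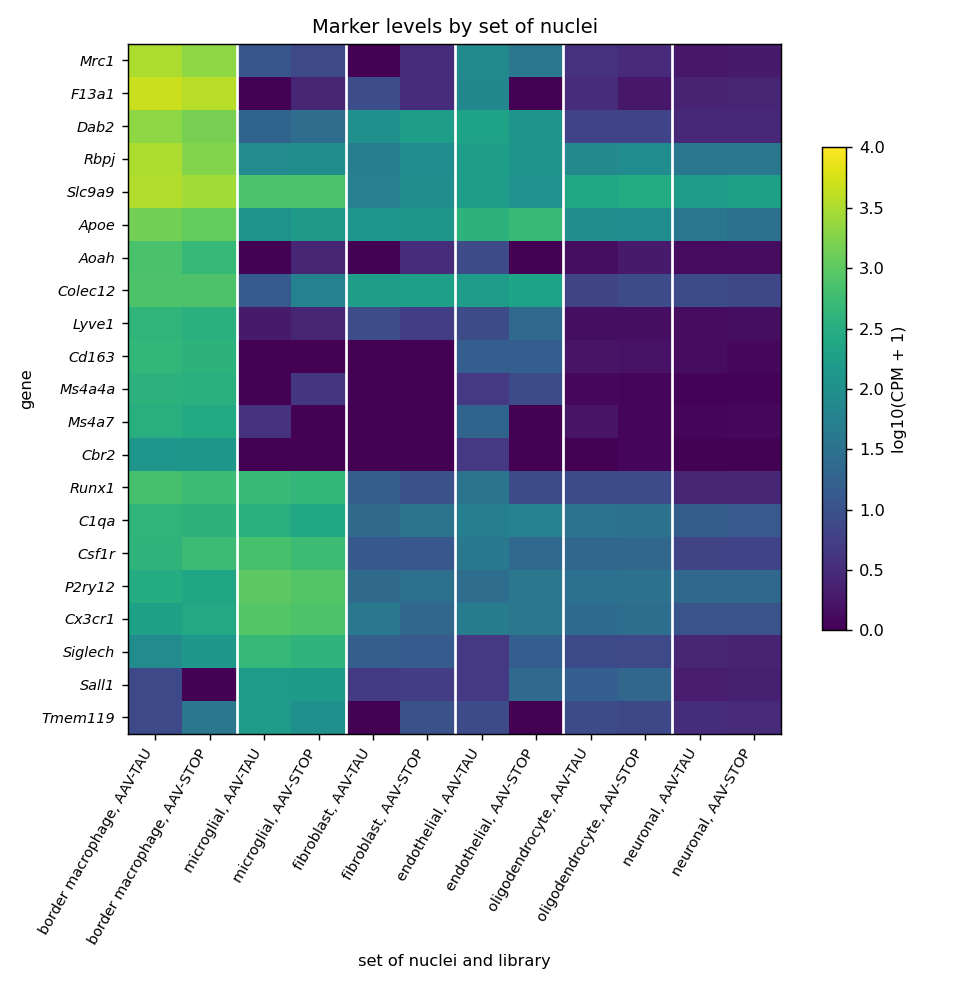
Levels of 21 marker genes (rows) as log10(CPM + 1) in border macrophages without Rbfox3 UMIs and in 5 other sets of nuclei (columns, AAV-TAU left of AAV-STOP in each set). The upper 13 genes are brightest in border macrophages, Runx1, C1qa and Csf1r are bright in border macrophages and microglial nuclei, and the last 5 are brightest in microglial nuclei. Mrc1, F13a1, Dab2 and Cd163 chose the border macrophages, and the last 5 were among the genes that chose the microglial nuclei. Their pattern is a description.

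Markers of other blood cells had few UMIs. Over all border macrophages, the 10 T or NK cell genes summed to 8 UMIs in AAV-TAU and 2 in AAV-STOP, with 7 and 9 of them at 0. The 9 monocyte genes summed to 14 and 9 UMIs, with Ly6c2 among those at 0 and Ccr2, the receptor for monocyte entry, found in 1 nucleus of each library. The 7 neutrophil genes summed to 10 and 9 UMIs, with 6 of them at 0 in each library. The 9 dendritic cell genes summed to 28 UMIs in 22 AAV-TAU nuclei and 14 UMIs in 10 AAV-STOP nuclei, with 6 and 7 of them at 0. The 6 mast cell genes summed to 23 UMIs in 19 nuclei and 11 UMIs in 6 nuclei, with 4 and 5 at 0, and the 7 B cell genes to 9 UMIs in each library, with 5 at 0 in each. Their part in the differences between the libraries was not tested. Fibroblast genes summed to 179 UMIs in AAV-TAU (312 CPM, 268 to 361) and 47 in AAV-STOP (152.9 CPM, 112.3 to 203.3), against 8146 and 9129 CPM in fibroblast nuclei. In members without Rbfox3 they stood at 611 CPM in AAV-TAU and 303 CPM in AAV-STOP, and the part of fibroblast RNA in differences between the libraries was not tested. The oligodendrocyte list, which includes the myelin gene Mbp, stood at 2104 CPM in AAV-TAU and 2160 CPM in AAV-STOP, against 17687 and 18308 CPM in oligodendrocyte nuclei and 689 and 631 CPM in neuronal nuclei.

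Border macrophages are often divided into antigen-presenting cells with MHC class II and scavenging cells with Lyve1. UMIs of Cd74, H2-Aa, H2-Ab1 or H2-Eb1 were found in 10 of 89 AAV-TAU nuclei (11.2%, 5.52 to 19.7) and 8 of 62 AAV-STOP nuclei (12.9%, 5.74 to 23.9), and they summed to 22 UMIs in each library. Members without Rbfox3 supplied 17 of these UMIs in 8 of 56 AAV-TAU nuclei, and 2 in 2 of 33 AAV-STOP nuclei. Members with Rbfox3 supplied 5 in 2 of 33 AAV-TAU nuclei, and 20 in 6 of 29 AAV-STOP nuclei. No AAV-TAU nucleus had more than 4 UMIs of these genes and no AAV-STOP nucleus more than 9. Lyve1 was found without them in 40 AAV-TAU and 34 AAV-STOP nuclei, both were found in 3 and 2, and neither in 39 and 20. With so few UMIs per nucleus, a nucleus without a UMI of either kind cannot be placed in a class. Thinned shares for Cd74, the invariant chain of MHC class II, were 7.87% in AAV-TAU and 3.23% in AAV-STOP border macrophages, against 0.103% and 0.1495% of neuronal nuclei. The counting intervals of these shares overlap (3.22 to 15.5 and 0.393 to 11.2).

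Border macrophages were a larger share of the AAV-TAU library. They were 0.454% of AAV-TAU nuclei (0.365 to 0.559) and 0.306% of AAV-STOP nuclei (0.235 to 0.392), a ratio of 1.48 (1.06 to 2.09). Microglial nuclei had a like ratio of 1.49 (1.32 to 1.68), so there were 13.5 border macrophages per 100 microglial nuclei in AAV-TAU and 13.6 in AAV-STOP. This likeness did not hold without Rbfox3 UMIs in either set. There the ratio of microglial nuclei was 2.23 (1.88 to 2.65). Border macrophages per 100 microglial nuclei were then 12.963 in AAV-TAU and 16.5 in AAV-STOP. The other cells of the vessels and coverings differed in opposite directions. Endothelial nuclei were 0.566% of AAV-TAU and 0.340% of AAV-STOP (ratio 1.66, 1.22 to 2.28). Fibroblast nuclei were 0.587% of AAV-TAU and 1.04% of AAV-STOP (ratio 0.564, 0.445 to 0.711), so there were 77.4 border macrophages per 100 fibroblast nuclei in AAV-TAU and 29.4 in AAV-STOP. Neuronal nuclei were 44.6% of AAV-TAU and 52.8% of AAV-STOP. How much meninges and choroid plexus each dissection held was not tested.

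The size of the difference in share depended on which nuclei were kept. With 2000 or more UMIs asked of every barcode, 75 AAV-TAU and 61 AAV-STOP border macrophages remained and the ratio was 1.38. With marked doublets left out, 55 and 49 remained and the ratio was 1.16. Under a stricter and a looser marker rule it was 1.52 and 1.40. The ratio was 1.75 (1.12 to 2.79) for border macrophages without Rbfox3 UMIs, 56 in AAV-TAU and 33 in AAV-STOP. It was 1.18 (0.693 to 2.01) for those with Rbfox3 UMIs, 33 and 29. The difference between these 2 ratios was not tested.

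Rbfox3 encodes the neuronal splicing factor NeuN, so its UMIs mark neuronal RNA in a barcode. It was found in 37.1% of AAV-TAU (27.1 to 48.0) and 46.8% of AAV-STOP border macrophages (34.0 to 59.9). With each member thinned to 1500 UMIs the shares were 21.3% (13.4 to 31.3) and 21.0% (11.7 to 33.2). Thinned shares in other cells that do not transcribe the gene were 19.5% of AAV-TAU and 26.1% of AAV-STOP microglial nuclei, 13.8% and 13.7% of oligodendrocyte nuclei, 16.2% and 27.5% of endothelial nuclei, and 9.57% and 13.7% of fibroblast nuclei. In neuronal nuclei, which were chosen by 2 or more Rbfox3 UMIs, they were 59.3% and 58.0%. The thinned share in border macrophages lay above those of the other glial and vascular sets in AAV-TAU and inside their range in AAV-STOP.

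Border macrophages with Rbfox3 UMIs were deeper than those without. Their median was 9179 UMIs in AAV-TAU and 4904 in AAV-STOP, against 2356.5 and 2528 UMIs without Rbfox3. Only 4 of the 33 AAV-TAU members had exactly 1 Rbfox3 UMI, while 17 of the 29 AAV-STOP members did. Scrublet marked 24 of 33 AAV-TAU members with Rbfox3 as doublets and 7 of 29 in AAV-STOP, against 10 of 56 and 6 of 33 of those without. With marked doublets left out, the unthinned share with Rbfox3 was 16.4% in AAV-TAU and 44.9% in AAV-STOP. Leaving out marked doublets thus removed most AAV-TAU members with Rbfox3 and few of those in AAV-STOP.

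Among members with Rbfox3, the neuronal share of UMIs fell into separate ranges in single nuclei. The neuron list without Rbfox3, 19 genes such as Snap25, Syt1 and Kcnip4, took 1.5% or more of the UMIs in 29 of 33 AAV-TAU and 24 of 29 AAV-STOP members with Rbfox3. The others with Rbfox3 were at most 0.938% in AAV-TAU and 0.844% in AAV-STOP. Among members without Rbfox3, 50 of 56 in AAV-TAU and 27 of 33 in AAV-STOP lay under 1.5%, and 6 in each library lay over it. Those last 6 had medians of 3902 UMIs in AAV-TAU and 3977 in AAV-STOP, so absence of Rbfox3 did not always mean absence of neuronal RNA. Without Rbfox3 the shares came closer to 1.5%. They reached 1.22% in AAV-TAU and 1.10% in AAV-STOP under it, and began at 1.90% and 1.55% over it. The value of 1.5% was set after the shares had been seen.

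**Figure D3:**
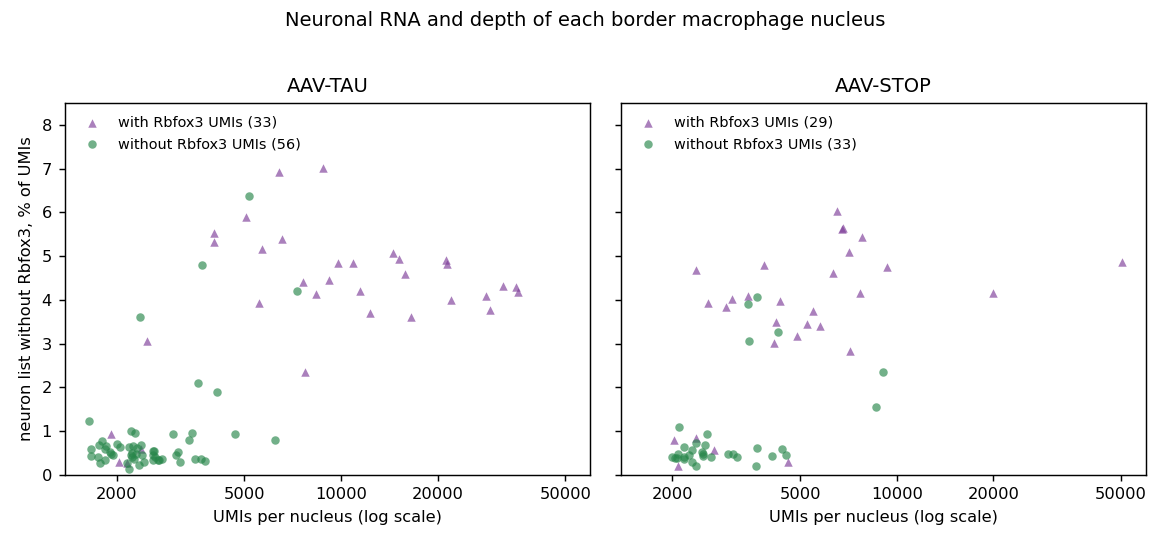
UMIs per nucleus (horizontal, log scale) and the share of them from the neuron list without Rbfox3 (vertical, percent) for each border macrophage, AAV-TAU left and AAV-STOP right, with triangles for nuclei with Rbfox3 UMIs and circles for nuclei without. Most circles lie under 1.5% at low depth, and most triangles lie above it, up to 35587 UMIs in AAV-TAU and 50261 in AAV-STOP.

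Between members with and without Rbfox3, neuronal genes and macrophage genes lay on opposite sides. In AAV-TAU, 698 of 2348 measured genes (29.7%) were past 2-fold higher in members with Rbfox3 and 356 (15.2%) past 2-fold lower. In AAV-STOP, 327 of 1160 (28.2%) were higher and 156 (13.4%) lower. Members with Rbfox3 held 421403 UMIs in AAV-TAU and 201754 in AAV-STOP, against 152231 and 105685 without. The minimum of 30 UMIs in the higher group therefore measured genes higher with Rbfox3 from lower CPM. The counts higher and lower cannot be set against each other. Kcnip4, a potassium channel subunit, had 6189 CPM with and 480 CPM without Rbfox3 in AAV-TAU, and 4957 and 1012 CPM in AAV-STOP. Hs6st3, a heparan sulfate sulfotransferase, had 937 and 72.3 CPM in AAV-TAU, and 629 and 56.8 CPM in AAV-STOP. Epha6, an ephrin receptor, had 1412 and 92.0 CPM in AAV-TAU, and 1328 and 283.9 CPM in AAV-STOP. These are genes of neurons, at 6387, 1188 and 1801 CPM in AAV-TAU neuronal nuclei.

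The genes lowest in members with Rbfox3 were macrophage genes. P2rx7, a receptor for extracellular ATP, had 23.7 CPM with and 414 CPM without Rbfox3 in AAV-TAU, and 153.7 and 416 CPM in AAV-STOP. Rbm47, an RNA-binding protein, had 35.6 and 447 CPM in AAV-TAU, and 104.1 and 293 CPM in AAV-STOP. Nrros, which acts in TGF-beta activation, had 57.0 and 374 CPM in AAV-TAU, and 64.4 and 322 CPM in AAV-STOP. Counted per nucleus the gap was narrower, because members with Rbfox3 hold more RNA of other kinds. The 5 rule markers summed to 19.1 UMIs per nucleus with and 31.4 without Rbfox3 in AAV-TAU, and to 20.6 and 27.1 in AAV-STOP. The pan-macrophage list gave 23.3 and 29.4 UMIs per nucleus in AAV-TAU, and 23.2 and 32.0 in AAV-STOP. The 20 genes of the neuron list gave 561.6 and 31.1 UMIs per nucleus in AAV-TAU, and 295 and 37.5 in AAV-STOP.

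Members with Rbfox3 held RNA of several hippocampal neuron types. Their granule neuron list stood at 2041 CPM in AAV-TAU and 2082 CPM in AAV-STOP, against 1882 and 2225 CPM in neuronal nuclei. Their CA3 neuron list stood at 617 and 599.7 CPM against 790.5 and 757 CPM. The inhibitory neuron list stood at 605 CPM in AAV-TAU and 1869 CPM in AAV-STOP, against 613 and 638 CPM in neuronal nuclei. In AAV-STOP that list came from few nuclei: 7 of 29 held 20 or more of its UMIs, and 1 nucleus held 82 of its 377. Microglial markers at the minimum used for microglial nuclei were also found in 17 of 89 AAV-TAU members and 15 of 62 AAV-STOP members, and 4 or more UMIs of Mog, Mag and Mobp in 17 and 8.

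For AAV-TAU over AAV-STOP, summing all members mixes macrophage RNA with this neuronal RNA. Members with Rbfox3 held 421403 of the 573634 UMIs in AAV-TAU and 201754 of 307439 in AAV-STOP. The largest member alone held 6.20% of all members' UMIs in AAV-TAU and 16.3% in AAV-STOP. It had 7 and 5 UMIs of the rule markers. The pan-macrophage list took 0.421% of all members' UMIs in AAV-TAU and 0.563% in AAV-STOP, a ratio of 0.748 (0.703 to 0.796). In members without Rbfox3 it took 1.08% and 1.00%, a ratio of 1.08 (1.00 to 1.17), and per nucleus over all members it was 27.2 and 27.9 UMIs. Many macrophage genes and lists are therefore given in all members and in members without Rbfox3 side by side, and others only without Rbfox3.

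Over all members, 52 of 3566 measured genes (1.46%) were past 2-fold higher in AAV-TAU and 12 (0.337%) past 2-fold lower. To be measured, a gene higher in AAV-TAU needed 52.3 CPM over all members, and a gene higher in AAV-STOP needed 97.6 CPM. Without Rbfox3 these levels were 197 and 284 CPM. Genes higher in AAV-TAU were thus measured from lower levels, so the counts higher and lower cannot be set against each other. Shares and medians of measured genes, here and in the lists below, carry the same limit. Macrophage enriched genes had at least 2 times the CPM of neuronal nuclei in members without Rbfox3, with UMIs of both libraries summed. AAV-TAU supplied 152231 of those member UMIs and AAV-STOP 105685, so genes high in AAV-TAU entered more easily. Among the 791 of the 3566 genes that are macrophage enriched, 11 (1.39%) were higher and 5 (0.632%) lower. In members without Rbfox3, 37 of 935 (3.96%) were higher and 49 (5.24%) lower, and among the 424 macrophage enriched genes 21 (4.95%) were higher and 6 (1.42%) lower. Either way past 2-fold were 2.02% of the enriched genes over all members, and 9.2% of all measured and 6.37% of enriched genes without Rbfox3. Ratios above 1 were held by 49.6% of enriched genes over all members and 76.2% without Rbfox3. These shares are a description, since members without Rbfox3 chose the enriched genes. In members with Rbfox3, 3.37% of 2376 measured genes were past 2-fold higher and 4.55% past it either way, with 68.7% above a ratio of 1. Of 353 enriched genes there, 4.82% were higher, 5.38% lower and 10.2% either, with 52.7% above 1. The median ratio of all measured genes was 0.10 log2 units over all members and 0.16 without Rbfox3. For macrophage enriched genes it was -0.01 and 0.25. Scaling by the pan-macrophage list in place of all UMIs moved the median of all measured genes to 0.45 over all members and 0.05 without Rbfox3. With marked doublets left out the counts over all members were 90 higher and 211 lower.

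**Figure D4:**
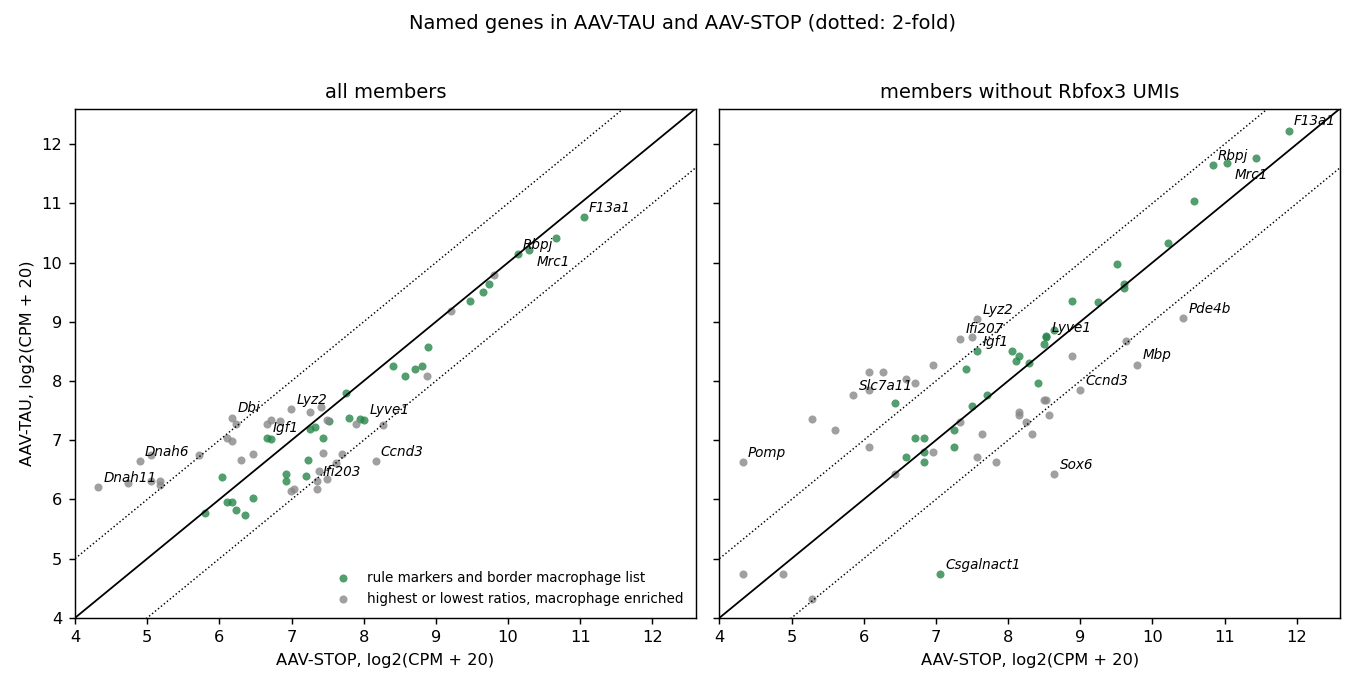
Levels of named genes in AAV-TAU (vertical) and AAV-STOP (horizontal) as log2(CPM + 20), over all members (left) and over members without Rbfox3 UMIs (right), with the line of equal levels and dotted lines at 2-fold. Most border macrophage genes lie below the line on the left and on or above it on the right, as Mrc1 does with ratios of 0.948 and 1.57.

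Mrc1, Dab2 and Stab1, uptake receptors or adaptors whose UMIs also chose the nuclei, had ratios above 1 in members without Rbfox3 and under 1 over all members. They are given as a description. Without Rbfox3, Mrc1 had 3265 CPM in AAV-TAU and 2082 CPM in AAV-STOP (ratio 1.57, 1.34 to 1.85), while over all members it had 1171 and 1236 CPM (0.948, 0.835 to 1.08). Per nucleus, Mrc1 had 7.55 UMIs in AAV-TAU and 6.13 in AAV-STOP over all members. Dab2 had 2082 and 1514 CPM without Rbfox3 (1.38, 1.13 to 1.67) and 774 and 836 CPM over all members (0.926, 0.792 to 1.08). Stab1 had 992 and 710 CPM without Rbfox3 (1.40, 1.05 to 1.87) and 363 and 455 CPM over all members (0.796, 0.640 to 0.994). These 3 genes differed in direction with the nuclei summed. With marked doublets left out, the log2 ratios over all members were 1.18 for Mrc1, 0.99 for Dab2, 0.86 for Stab1, 0.93 for F13a1 and 0.60 for Cd163, against -0.08, -0.11, -0.31, -0.28 and -0.59 with them kept. Cd163 had 447 and 378 CPM without Rbfox3 (1.18, 0.787 to 1.79), Lyve1 407 and 350 CPM (1.16, 0.762 to 1.80) and Colec12 775 and 757 CPM (1.02, 0.764 to 1.38). The intervals of these last 3 included 1. Over all members Lyve1 had 82 of 573634 UMIs in AAV-TAU and 73 of 307439 in AAV-STOP, a smaller share in AAV-TAU. Clec10a, a galactose-type lectin, had 27 UMIs in AAV-TAU and 7 in AAV-STOP without Rbfox3 (ratio 2.68, 1.14 to 7.28).

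The list of 20 scavenger and endocytic receptors, which holds 4 of the 5 rule markers, is likewise a description, since those 4 are among its 7 measured genes without Rbfox3. Over all members, 2 of its 10 measured genes were higher in AAV-TAU and 8 lower (median log2 ratio -0.22, or 0.16 when scaled by the pan-macrophage list), where 63.5% of all measured genes were higher. Without Rbfox3, 7 of 7 were higher (median 0.45, or 0.34 so scaled), where 65% of all measured genes were higher. Its summed level without Rbfox3 was 9203 CPM in AAV-TAU and 6699 CPM in AAV-STOP (ratio 1.37, 1.25 to 1.51), or 25.02 and 21.5 UMIs per nucleus. In microglial nuclei the same list had a ratio of 1.00 (0.887 to 1.13).

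Rbpj (chr5:53466152-53657362, GRCm38) had 3186 CPM in AAV-TAU and 1807 CPM in AAV-STOP without Rbfox3 (ratio 1.76, 1.49 to 2.10), and it was found in 54 of 56 and 29 of 33 nuclei. Over all members it had 1105 and 1103 CPM (1.00, 0.877 to 1.15), or 7.12 and 5.47 UMIs per nucleus. In microglial nuclei it stood at 84.3 and 97.5 CPM. Maf, a factor of macrophage identity, had 624 and 587 CPM without Rbfox3 (1.06, 0.764 to 1.49). Runx1 had 696 and 558 CPM (1.25, 0.899 to 1.75). Of the 11 measured factors on the identity list, 10 were higher in AAV-TAU and 1 lower (median log2 ratio 0.28, near the 0.25 of macrophage enriched genes, of which 76.2% were higher). Scaled by the pan-macrophage list, 8 of 11 were higher (median 0.17). Over all members 4 of 13 were higher and 9 lower (median -0.24, or 0.12 when scaled by the pan-macrophage list).

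Among secreted proteins, lysozyme and insulin-like growth factor 1 were higher in AAV-TAU. Lyz2 (chr10:117277331-117282321), the lysozyme gene of mouse macrophages, had 77 UMIs in AAV-TAU and 18 in AAV-STOP without Rbfox3, or 506 and 170.3 CPM (ratio 2.97, 1.76 to 5.27). One AAV-TAU nucleus held 31 of the 77, and Lyz2 was found in 30 of 56 AAV-TAU and 14 of 33 AAV-STOP nuclei. Over all members it had 163.9 and 107.3 CPM (1.53, 1.02 to 2.34). Igf1 (chr10:87858265-87937042), a growth factor, had 342 and 170.3 CPM without Rbfox3 (2.01, 1.15 to 3.64), from 26 of 56 and 14 of 33 nuclei with at most 5 and 3 UMIs each. Over all members its ratio was 1.37 (0.852 to 2.27). Microglial nuclei had 6.79 CPM of Igf1 in AAV-TAU and 14.6 CPM in AAV-STOP. Selenop, a selenium carrier, had 275.9 and 151.4 CPM without Rbfox3 (1.82, 1.00 to 3.47), and Apoe 1478 and 1145 CPM (1.29, 1.03 to 1.62). Gas6, which links dying cells to phagocytic receptors, had 414 and 350 CPM (1.18, 0.776 to 1.83). F13a1 had 4776 and 3766 CPM (1.27, 1.12 to 1.44). Over all members F13a1 had 984 of 573634 UMIs in AAV-TAU and 644 of 307439 in AAV-STOP, a smaller share in AAV-TAU.

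The cytokine and chemokine list of 30 genes summed to 135 UMIs in AAV-TAU and 61 in AAV-STOP without Rbfox3 (ratio 1.54, 1.13 to 2.11), and Igf1 supplied 52 and 18 of them. Of its genes only Igf1 was measured there. Pdgfc, a platelet-derived growth factor, had 18 UMIs in AAV-TAU and 3 in AAV-STOP (4.17, 1.22 to 22.1). Over all members the list had 204 and 116 UMIs, with a ratio of 0.943 (0.747 to 1.19). The list of disease associated macrophage genes had a ratio of 1.32 (1.13 to 1.53) without Rbfox3 and 0.987 (0.880 to 1.11) over all members. Its 3 measured genes without Rbfox3, Apoe, Ctsb and Igf1, were higher in AAV-TAU, as were 65% of all measured and 76.2% of macrophage enriched genes.

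Interferon-inducible genes of the p200 family did not move together. Ifi207 (chr1:173723427-173741747) had 61 UMIs in AAV-TAU and 15 in AAV-STOP without Rbfox3, or 401 and 141.9 CPM (ratio 2.82, 1.59 to 5.35), from 32 of 56 and 11 of 33 nuclei. Ifi203 (chr1:173920407-173942672) had 23 and 28 UMIs, or 151.1 and 264.9 CPM (0.570, 0.314 to 1.03). Mndal (chr1:173849126-173942491) had 18 and 19 UMIs, or 118.2 and 179.8 CPM (0.658, 0.326 to 1.32). These genes are related neighbours on chromosome 1, the spans of Ifi203 and Mndal overlap on the same strand, and how reads were shared among them cannot be told from the counts, so each level is uncertain. Over all members Ifi203 and Mndal had ratios of 0.414 (0.257 to 0.663) and 0.365 (0.222 to 0.595), and with marked doublets left out log2 ratios of -0.09 and -0.31. The interferon response list of 23 counted genes, which holds Ifi207, had 243 and 128 UMIs without Rbfox3 (1.32, 1.06 to 1.65) and a ratio of 0.837 (0.701 to 1.00) over all members. In microglial nuclei its ratio was 1.39 (1.15 to 1.67).

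Complement genes without Rbfox3 had intervals that included 1. C1qa had 420 CPM in AAV-TAU and 378 CPM in AAV-STOP without Rbfox3 (1.11, 0.737 to 1.69) and C1qc had 427 and 407 CPM (1.05, 0.703 to 1.58). The complement list had a ratio of 1.07 (0.912 to 1.27) without Rbfox3 and 0.745 (0.655 to 0.847) over all members. Csf1r had 401 and 549 CPM without Rbfox3 (0.730, 0.501 to 1.06), and 176.1 and 296 CPM over all members (0.595, 0.444 to 0.799). The list of macrophage growth factor receptors had a ratio of 0.910 (0.741 to 1.12) without Rbfox3, with 1 of 3 measured genes higher and 2 lower. Il6ra, the interleukin-6 receptor chain, had 98.5 and 246 CPM without Rbfox3 (0.401, 0.197 to 0.785), from 15 and 26 UMIs.

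A few genes were lower in AAV-TAU both over all members and without Rbfox3. Ccnd3, cyclin D3, had 210.2 CPM in AAV-TAU and 492 CPM in AAV-STOP without Rbfox3 (0.427, 0.266 to 0.676), and 80.2 and 266.7 CPM over all members (0.301, 0.205 to 0.437). It was found in 28 of 89 AAV-TAU and 36 of 62 AAV-STOP nuclei, with at most 5 and 7 UMIs in a nucleus. Rcsd1, a regulator of actin capping, had 151.1 and 360 CPM without Rbfox3 (0.420, 0.239 to 0.724) and 61.0 and 159.4 CPM over all members (0.383, 0.241 to 0.603). Ly86, also called MD-1, had 322 and 454 CPM without Rbfox3 (0.709, 0.466 to 1.08) and 132.5 and 289.5 CPM over all members (0.458, 0.332 to 0.629), but with marked doublets left out its log2 ratio was 0.0078. The 17 microglia genes together had a ratio of 0.719 (0.596 to 0.866) without Rbfox3 and 0.678 (0.590 to 0.779) over all members, and members holding the microglial minimum of UMIs without Rbfox3 were 6 of 56 in AAV-TAU and 9 of 33 in AAV-STOP. The part of microglial RNA in these differences was not tested.

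Several of the most different genes rested on few nuclei. Slc7a11, the cystine transporter chain, had 50 UMIs in AAV-TAU and 4 in AAV-STOP over all members, and 1 AAV-TAU nucleus held 21 of the 50. Dnah11 and Dnah6, motor proteins of cilia, had 31 and 46 UMIs in AAV-TAU and 0 and 3 in AAV-STOP, from 7 and 5 AAV-TAU nuclei. In members without Rbfox3 they had 1 and 0 UMIs in AAV-TAU. Lhfpl3, a gene of oligodendrocyte precursors, had 51 and 58 UMIs, of which 1 AAV-STOP nucleus held 33, and its log2 ratio was -0.94 with marked doublets and 0.65 without. Sox6 without Rbfox3 had 10 and 40 UMIs from 4 and 2 nuclei. Mcm9, a helicase of DNA repair, was spread more widely, with 34 UMIs in 27 AAV-TAU nuclei and 4 UMIs in 4 AAV-STOP nuclei (ratio 4.56, 1.62 to 17.7). Vav2, a guanine nucleotide exchange factor, had 34 UMIs in 28 nuclei and 5 UMIs in 5 nuclei (3.64, 1.42 to 11.9). Cables1, which binds cyclin-dependent kinases, had 64 UMIs in 39 nuclei and 15 UMIs in 13 nuclei (2.29, 1.29 to 4.32).

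Lists of general cell function differed in other cell types too. Heat shock genes had a ratio of 1.54 (1.33 to 1.79) without Rbfox3, with 6 of 6 measured genes higher in AAV-TAU where 65% of all measured genes were, and 1.17 (1.06 to 1.29) over all members. The same list had ratios of 1.47 in microglial, 1.39 in oligodendrocyte and 1.33 in neuronal nuclei. Nuclear genes of the respiratory chain had a ratio of 1.60 (1.31 to 1.94) without Rbfox3, and 1.52, 1.48 and 1.31 in the same 3 sets. With Rbfox3 the ratios of these lists were 1.03 (0.902 to 1.18) and 0.870 (0.741 to 1.02). The difference between members with and without Rbfox3 in these ratios was not tested. Mitochondrially encoded genes had a ratio of 1.01 (0.871 to 1.17) without Rbfox3 and 1.52 (1.40 to 1.66) over all members, and 1.44 in neuronal nuclei. Cell cycle genes had 22 UMIs in AAV-TAU and 51 in AAV-STOP without Rbfox3 (0.299, 0.173 to 0.503), but 1 AAV-STOP nucleus held 24 of the 51.

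The remaining macrophage lists without Rbfox3 had ratios between 0.880 and 1.34. Lysosome genes had 1.15 (1.02 to 1.30), iron and heme genes 1.13 (0.948 to 1.34), lipid and cholesterol genes 1.17 (1.01 to 1.36), phagocytic receptors 0.986 (0.861 to 1.13) and inflammatory signalling genes 0.883 (0.732 to 1.07). MHC class II genes had 1.34 (0.985 to 1.83), of which Ctss and Cd86 supplied 97 of 127 UMIs in AAV-TAU and 52 of 66 in AAV-STOP. The oligodendrocyte list had 0.609 (0.521 to 0.712), with 1 AAV-STOP nucleus holding 62 of its 352 UMIs. In members with Rbfox3 the macrophage lists had lower ratios, such as 0.505 (0.451 to 0.566) for the rule markers, although the UMIs of these markers per nucleus were 19.1 and 20.6. Members with Rbfox3 held more UMIs in AAV-TAU, so a given number of macrophage UMIs made a smaller share of them.

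**Figure D5:**
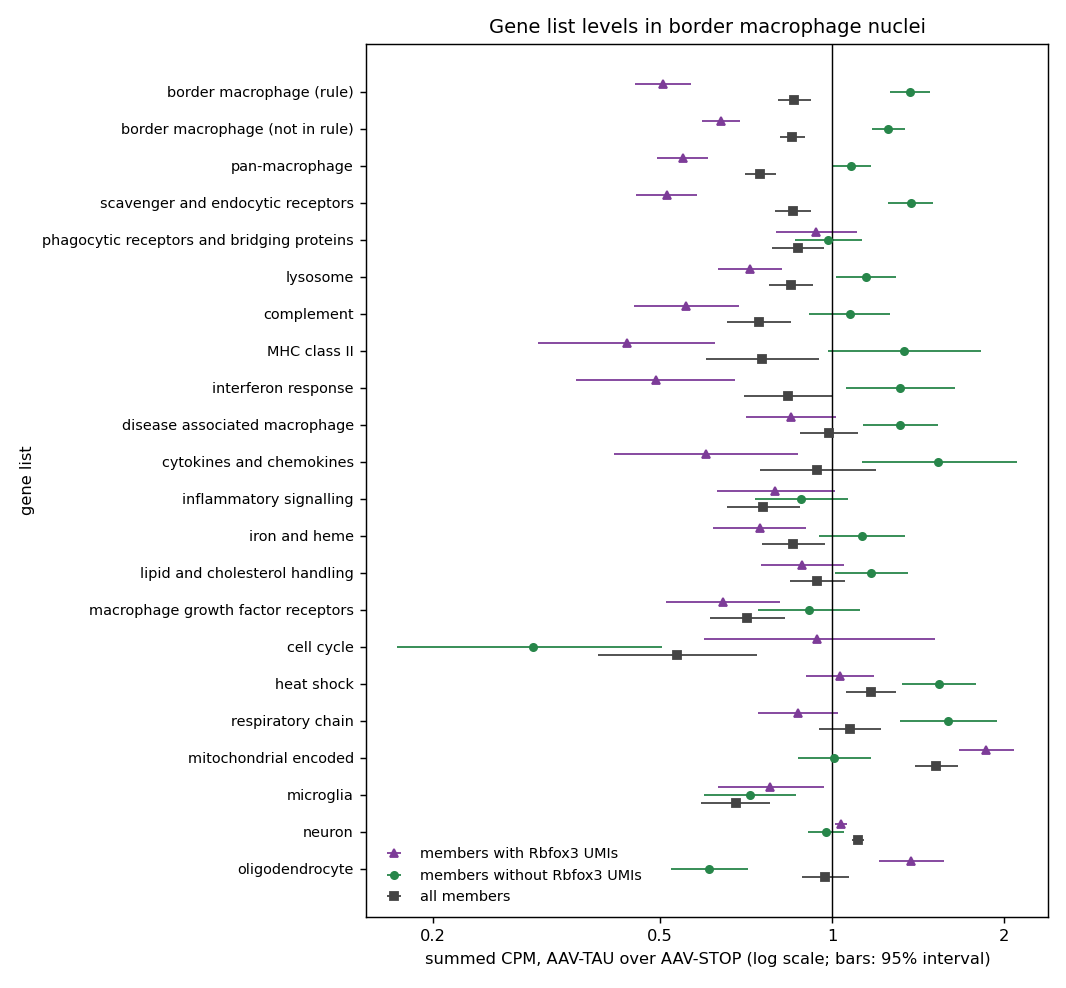
Ratio of the summed CPM of 22 gene lists in AAV-TAU over AAV-STOP (horizontal, log scale) for members with Rbfox3 UMIs, members without and all members, with bars for the 95% counting interval. The lists of border macrophage genes lie left of 1 with Rbfox3 UMIs and over all members and right of 1 without, while heat shock genes lie right of 1 in all 3.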

How the data were processed

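Nuclei of hippocampus were read as 1 10x Genomics 3' library per group. The deposited counts are whole-number UMI counts per gene and barcode, made with Cell Ranger 8.0.1 per the file headers; the submitters' processing notes name Cell Ranger 4.0 and Seurat 4.4.0 with mm10, and which version set the barcodes is not given in the sources used here. All deposited barcodes were used, with no further filter on cells.

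Nuclei were summed per library. Ratios were taken as log2 of CPM with a pseudocount of 20 CPM, for genes with 30 or more UMIs in the group with the higher CPM, and 2-fold was the size at which genes were counted. Ratios printed with intervals are plain ratios of CPM without the pseudocount. Shares have exact Clopper-Pearson intervals, levels exact Poisson intervals and ratios exact binomial intervals, all at 95%. At 100 CPM the interval ran from 75.3 to 129 CPM in AAV-TAU and 68.5 to 143 CPM in AAV-STOP over all members, and from 55.1 to 163 and 52.0 to 186 CPM without Rbfox3. Shares were also taken with each nucleus thinned to 1500 UMIs. Doublets were marked by scrublet in scanpy 1.11.5 at an expected rate of 0.15 and left out only in an alternative.

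The genes named are the rule's markers, listed border macrophage genes with 30 or more UMIs, and the most different genes of each comparison and list; their 178 IDs matched GENCODE vM21 on GRCm38. Spi1, Runx1, C1qa, Apoe, Pf4, Ms4a7, Cbr2 and Cd74 are given for their roles, whether or not that rule names them, and were chosen after their values were seen. The members and lists were chosen with earlier results of these data known, and 2 of 584 listed genes had no count here. Summing and ratios were tested on simulated data. Python 3.11.15, numpy 2.4.6, scipy 1.17.1, pandas 2.3.3 and matplotlib 3.10.9 were used. Alternatives changed doublets, depth, mitochondrial share, marker thresholds, scaling, weighting, pseudocount and the UMI minimum.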

Additional observations from a re-analysis of the deposited data

How the results depend on the processing

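No paired analysis was possible because each group is 1 library, and for the same reason no replicate could be left out. With so few UMIs, counts of genes past 2-fold moved with most settings. Summed levels of the gene lists moved too. Under the alternatives, 177 list ratios lay outside the counting interval of the ratio over all members and 109 inside it. The settings without the largest nucleus of each library and without both Rbfox3 UMIs and doublet marks were chosen after seeing the data. Genes past 2-fold higher in AAV-TAU over all members, 52 as reported, were 90 without marked doublets, 33 under the looser marker rule, 24 after thinning, 187 scaled by the pan-macrophage list, 108 and 16 with pseudocounts of 5 and 50 CPM, 126, 17 and 126 with minimums of 10 and 60 UMIs and no minimum, and 27 without Rbfox3 UMIs and doublet marks. Genes lower, 12 as reported, were in the same settings 211, 4, 35, 5, 19 and 6, 54, 5 and 59, and 24. They were also 21 under the stricter rule, 49 without Rbfox3, 36 as a mean over nuclei and 19 without the largest nucleus of each library. Between members with and without Rbfox3, genes higher in AAV-TAU (698) were 88 without marked doublets and 1081, 461 and 1129 with minimums of 10, 60 and none, and genes lower (356) were 209, 1016, 137 and 1454. In AAV-STOP genes higher (327) were 587 under the looser rule and 633, 194 and 914 with those minimums, and genes lower (156) were 609, 46 and 1245. The share with Rbfox3 was 16.4% in AAV-TAU without marked doublets, and 12.9% in AAV-TAU and 11.1% in AAV-STOP with barcodes thinned before the rule. Under the settings on doublets, depth, mitochondrial share and marker thresholds, the ratio of shares of border macrophages was between 1.16 and 1.52. Among genes past 2-fold, log2 ratios that turned sign were those of Cfap43 (-0.13 without doublets, -0.80 thinned, -0.15 without Rbfox3, -0.22 without both), Dnah6 (-0.75, -0.80, -0.96 and -1.23 in the same order), Dbi (-0.15 without Rbfox3, -0.42 without both), Tmem163 (-0.69 without doublets, -0.0091 without Rbfox3, -1.59 without both) and Ly86 (0.0078 without doublets). Genes within 2-fold turned sign too: without doublets Mrc1 was at 1.18, F13a1 at 0.93, Dab2 at 0.99, Stab1 at 0.86, Cd163 at 0.60 and Lhfpl3 at 0.65, all under 0 as reported. The cause was not tested.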
